A study of Saccharomyces cerevisiae with 12 samples.

Results

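The 49 genes described here encode ribosome biogenesis factors of the budding yeast Saccharomyces cerevisiae. They were chosen as a list of standard gene names, and all 49 of 49 names matched a systematic identifier in a count table of 6219 genes. By the known role of the protein, 19 act on the small ribosomal subunit, 25 on the large subunit and 5 on both. RNA was counted in log-phase cells of 4 strains with 3 replicates each. The tup1(S649F) strains, DY19304 (MATa) and DY19306 (MATalpha), carry a point mutation in TUP1. The wild-type (WT) strains are DY150 (MATa) and DY3420 (MATalpha). A group is thus 1 strain, and all 4 share the W303 background with the alleles his3-11,15, ade2-1, ura3-1, can1-100, trp1-1 and the double allele leu2-3 leu2-112. Cells were grown at 30 °C in rich YPA medium with 2% dextrose and were collected at an OD660 between 0.6 and 0.8. The labels do not say whether replicates were separate cultures, so p-values measure only the spread between these samples, which may be technical.

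Tup1 is a corepressor that forms a complex with Cyc8, and DNA-binding proteins recruit it to promoters. The series title asks about a coactivator role for it. Ribosome biogenesis begins in the nucleolus, where RNA polymerase I makes a long precursor of the ribosomal RNAs. Small subunit factors assemble around its leading part as the small subunit processome, with the U3 snoRNP and the subcomplexes UtpA, UtpB and UtpC. Large subunit factors fold and trim the remainder and hand it on towards export to the cytoplasm. In yeast the genes of these factors form a large group that is transcribed together during growth and is turned down together under stress. Many of their promoters hold the PAC element, bound by the repressors Dot6 and Tod6, and the RRPE element, bound by the repressor Stb3.

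Library totals ran from 5657714 to 9300353 counts, and the lowest count of any of the 49 genes in a library was 74. All 49 passed the filter on low counts, as did 5654 genes in all. Replicate 1 of tup1 MATa stood apart from its 2 fellow replicates, with a chi-square per degree of freedom of 20.98 and 28.3 against them, where pairs of WT libraries gave 1.40 to 2.68. The remaining tup1 MATa pair gave 4.082, and the tup1 MATalpha pairs gave 12.2, 8.257 and 7.404. Every tup1 pair thus spread more than any WT pair, in MATalpha too, while 1 fit covered all 4 strains. The calls that change without replicate 1 of tup1 MATa are named beside the counts of each comparison. The mutated base cannot be read from gene counts, so the tup1 genotype itself could not be checked this way. The mating type could be: STE3, the receptor of MATalpha cells, averaged 0.978 CPM in tup1 MATa, 797 CPM in tup1 MATalpha, 1.63 CPM in WT MATa and 479 CPM in WT MATalpha. CPM are counts scaled to a common library total with TMM factors. STE2, the receptor of MATa cells, averaged 585 CPM in tup1 MATa, 575 CPM in tup1 MATalpha, 613 CPM in WT MATa and 5.47 CPM in WT MATalpha. All 4 MATa markers examined (STE2, BAR1, MFA2 and STE6) were higher in tup1 MATalpha than in WT MATalpha, with log2 fold changes of 4.21 to 10.00, while the 3 MATalpha markers (STE3, SAG1 and MF(ALPHA)2) were also high there. The MATa markers thus set the libraries labelled tup1 MATalpha apart from those labelled WT MATalpha. The part of this mixed mating-type expression in the results below was not tested.

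Scaled counts of ribosome biogenesis factor genes were lower in the tup1 mutant than in WT in both mating types, and the deficit was larger in MATalpha cells. These levels are relative to the other genes of a library, and absolute amounts of RNA were not measured. In MATalpha, 48 of the 49 genes fell in tup1 and 0 rose, against 31.0% of all genes tested that fell and 32.0% that rose. In MATa, 24 of 49 fell and 0 rose, against 16.7% of all genes that fell and 24.7% that rose. The median log2 fold change of the 49 genes was −0.56 in MATalpha, a ratio of 0.680 to WT, beside −0.03 for all genes tested. In MATa it was −0.18, a ratio of 0.884, beside −0.01 for all genes. None of the 49 changed by 2-fold or more in either mating type. These calls, and every adjusted p below, come from edgeR's quasi-likelihood test with Benjamini-Hochberg adjustment over all genes tested, at a threshold of 0.05. DESeq2 gave 48 lower in MATalpha and 21 in MATa, and 0 higher in either. With upper-quartile scaling, which moved the median of all genes by −0.15 in MATalpha and −0.11 in MATa, 48 and 38 of the 49 fell. Of all 5654 genes tested, 2470 and 1778 fell with that scaling, against 1755 and 947 with TMM. Relative to the median of all genes the 49 lay at −0.53 in MATalpha and −0.17 in MATa under both scalings. A change of scaling shifts all genes nearly alike, so this equality was fixed in advance and tests nothing. Upper-quartile scaling also changed the share of higher genes among all calls to 37.5% in MATalpha and 38.5% in MATa, against 50.8% and 59.6% with TMM.

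The sum over the 49 genes showed the same order of strains. It was 10028, 9538 and 9244 CPM in the 3 tup1 MATa libraries and 7794, 7714 and 7968 CPM in tup1 MATalpha, against 10612, 10647 and 10799 CPM in WT MATa and 11085, 10546 and 10731 CPM in WT MATalpha. Every tup1 library lay below every WT library of its mating type, and the tup1 MATalpha libraries lay lowest. As a share of unscaled counts the 49 genes took 0.884% to 0.965% in tup1 MATa and 0.699% to 0.753% in tup1 MATalpha, against 1.08% to 1.10% in WT MATa and 1.12% to 1.21% in WT MATalpha. In these bulk cultures, fewer cells that express the genes and less RNA per cell cannot be told apart. The mitochondrial ribosomal RNAs took 0.758% to 1.22% of the counts in tup1 MATa and 1.10% to 1.44% in tup1 MATalpha, against 0.803% to 0.844% in WT MATa and 0.922% to 0.965% in WT MATalpha. Their part in the result was not tested.

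**Figure D1:**
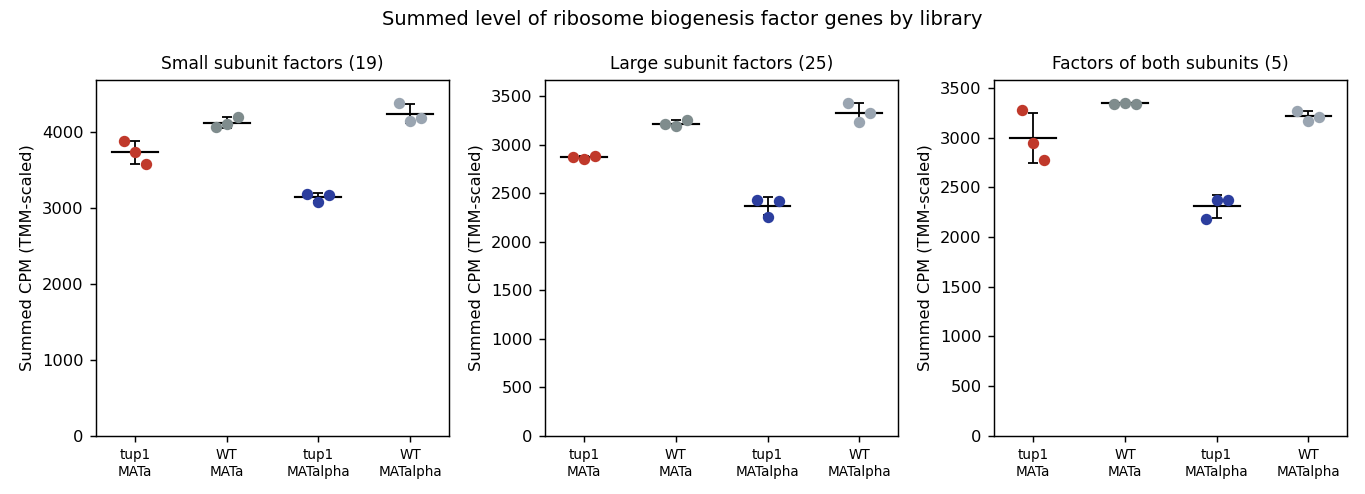
Summed CPM (TMM-scaled) of the small subunit, large subunit and both-subunit factor genes in each library, by strain; points are libraries and black bars are the mean ± SD of 3. The 3 tup1 MATalpha libraries sit lowest in all 3 panels, at 3082 to 3186 CPM for small subunit factors and 2255 to 2430 CPM for large subunit factors.

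Small and large subunit factors had similar medians, and the difference between these classes was not tested. In MATalpha, all 19 small subunit factors fell, with a median log2 fold change of −0.57 and a range from −0.97 to −0.19. Of the 25 large subunit factors 24 fell, with a median of −0.56 and a range from −0.79 to 0.13. In MATa, 9 of 19 small subunit factors fell (median −0.20) and 12 of 25 large subunit factors did (median −0.16). The 5 genes that serve both subunits had medians of −0.52 in MATalpha, where 5 of 5 fell, and −0.18 in MATa, where 3 of 5 fell. The ratio of small to large subunit factor counts within a library was 1.25 to 1.35 in tup1 MATa and 1.31 to 1.37 in tup1 MATalpha, against 1.27 to 1.29 in WT MATa and 1.26 to 1.29 in WT MATalpha. The groups overlapped in MATa. In MATalpha the 3 tup1 ratios lay above the 3 WT ratios. The ratio weighs each gene by its counts, unlike the medians. UTP20, UTP10, RRP12 and UTP22 averaged 881, 650, 491 and 409 CPM of the small subunit sum of 4242 CPM in WT MATalpha. Their MATalpha log2 fold changes were −0.30, −0.41, −0.36 and −0.19, all closer to WT than the small subunit median. Their part in the ratio was not tested.

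The promoters of 7 genes are printed because the genes move together and because most of their promoters hold 1 or both of the known elements. They are 6 genes with values in every library below that hold an element, taken from the largest fall in MATalpha on, and TIF6, the 1 gene that did not fall in MATalpha, which was added after its values were seen. Each stretch is 300 bases from RefSeq's R64 genome, from 250 bases before the start codon to 50 bases of the reading frame, on the gene's own strand. Capitals mark PAC (GCGATGAG), RRPE (AAAAATTTT), either as read or as the reverse complement, and the start ATG. The stretches are IMP4 at chrXIV:485357-485656 (+ strand), UTP4 at chrIV:1116714-1117013 (− strand), RRP5 at chrXIII:731074-731373 (− strand), MAK5 at chrII:528067-528366 (+ strand), IPI1 at chrVIII:276514-276813 (+ strand), NOC2 at chrXV:727262-727561 (+ strand) and TIF6 at chrXVI:593020-593319 (− strand).
IMP4: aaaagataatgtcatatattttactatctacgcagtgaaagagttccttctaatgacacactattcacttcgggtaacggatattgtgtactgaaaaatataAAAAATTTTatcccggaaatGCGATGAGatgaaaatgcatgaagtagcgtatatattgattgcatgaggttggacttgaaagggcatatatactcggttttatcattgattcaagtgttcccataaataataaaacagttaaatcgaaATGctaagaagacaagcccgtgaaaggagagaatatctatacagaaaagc
UTP4: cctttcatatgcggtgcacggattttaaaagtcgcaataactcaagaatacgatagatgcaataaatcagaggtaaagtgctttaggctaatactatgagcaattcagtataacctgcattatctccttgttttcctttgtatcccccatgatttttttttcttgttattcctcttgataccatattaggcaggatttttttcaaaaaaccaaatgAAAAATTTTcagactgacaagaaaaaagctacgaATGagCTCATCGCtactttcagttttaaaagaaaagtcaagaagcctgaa
RRP5: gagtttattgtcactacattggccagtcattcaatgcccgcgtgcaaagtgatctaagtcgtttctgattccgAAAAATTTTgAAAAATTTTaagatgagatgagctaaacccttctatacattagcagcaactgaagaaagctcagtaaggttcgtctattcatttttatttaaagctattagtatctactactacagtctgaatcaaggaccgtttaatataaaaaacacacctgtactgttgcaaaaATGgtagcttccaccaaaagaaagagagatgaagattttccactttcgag
MAK5: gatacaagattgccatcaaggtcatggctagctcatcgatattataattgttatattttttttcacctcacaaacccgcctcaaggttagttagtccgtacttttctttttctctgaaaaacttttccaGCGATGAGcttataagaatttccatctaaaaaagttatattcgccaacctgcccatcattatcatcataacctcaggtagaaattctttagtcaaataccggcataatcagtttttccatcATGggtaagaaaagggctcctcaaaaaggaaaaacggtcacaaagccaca
IPI1: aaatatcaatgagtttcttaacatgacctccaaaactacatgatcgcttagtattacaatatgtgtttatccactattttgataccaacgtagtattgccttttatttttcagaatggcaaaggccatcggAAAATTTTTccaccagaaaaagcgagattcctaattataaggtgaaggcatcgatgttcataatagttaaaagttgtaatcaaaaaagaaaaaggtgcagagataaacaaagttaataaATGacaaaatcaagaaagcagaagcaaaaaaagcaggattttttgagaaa
NOC2: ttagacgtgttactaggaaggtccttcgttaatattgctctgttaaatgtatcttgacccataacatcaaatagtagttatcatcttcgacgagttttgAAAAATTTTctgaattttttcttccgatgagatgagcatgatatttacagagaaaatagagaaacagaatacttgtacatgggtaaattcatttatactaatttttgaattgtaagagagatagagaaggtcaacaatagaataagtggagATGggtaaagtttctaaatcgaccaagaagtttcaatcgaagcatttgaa
TIF6: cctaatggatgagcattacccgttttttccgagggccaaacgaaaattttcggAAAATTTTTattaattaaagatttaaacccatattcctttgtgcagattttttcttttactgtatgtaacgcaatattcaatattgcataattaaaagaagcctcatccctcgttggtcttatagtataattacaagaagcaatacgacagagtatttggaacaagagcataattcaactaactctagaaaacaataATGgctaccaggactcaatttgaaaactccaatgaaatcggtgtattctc

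IMP4 holds an RRPE 148 bases before the start codon and a PAC 128 bases before it. UTP4 holds its RRPE close to the start codon, 34 bases before it, and its PAC inside the reading frame. RRP5 has a pair of RRPE matches in a row, and MAK5 a PAC alone. IPI1, NOC2 and TIF6 each hold 1 RRPE and no PAC match. The RRPE of TIF6 starts 197 bases before the start codon, and those of IPI1 and NOC2 start 119 and 151 bases before it. Whether the element bears on the level of TIF6 was not tested. Several of these stretches run between divergent genes: 278 bases separate MAK5 from BMT2, and 277 separate NOC2 from GEP3.

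Over all 49 promoters, 26 (53.1%) held a PAC and 33 (67.3%) an RRPE, where 236 (3.93%) and 419 (6.98%) of 6001 promoters of the same length did. Both elements stood in 17 (34.7%) of the 49 promoters and in 1.65% of all promoters, and 7 of the 49 held neither. PAC was found in 12 of 19 small and 13 of 25 large subunit factor promoters, and RRPE in 10 of 19 and 18 of 25. All 5 genes of both subunits held an RRPE. The PAC matches had their centre at a median of 117 bases before the start codon and the RRPE matches at 144.5 bases, and no PAC overlapped an RRPE. A match is a run of letters, not a measured binding site.

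**Figure D2:**
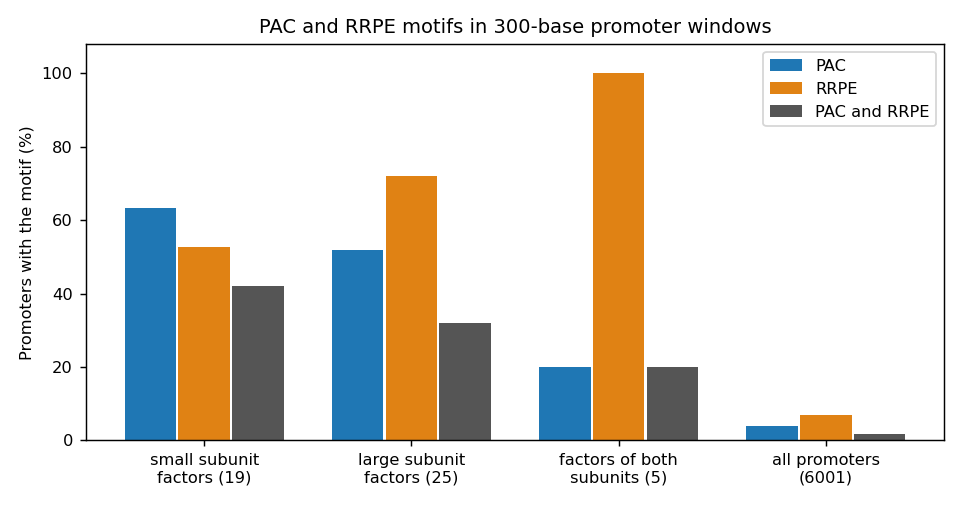
Percentage of promoters (y axis) with an exact PAC match, an RRPE match or both, for small subunit factors, large subunit factors, factors of both subunits and all 6001 promoters (x axis, number of promoters in brackets). PAC stands in 63.2% of small and 52.0% of large subunit factor promoters and in 3.93% of all promoters.

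Among the 49 genes the median fall was no larger with an exact match to an element than without one, a difference that was not tested. Near matches, such as ccgatgag in the NOC2 stretch, were not counted. A gene without a match may therefore still hold an element. In MATalpha the median log2 fold change was −0.57 in the 17 genes with both elements, −0.56 in the 9 with PAC alone and −0.49 in the 16 with RRPE alone. It was −0.74 in the 7 with neither (NOC3, NOC4, NOP4, NOP9, RRP9, UTP18 and UTP22). Those 7 ran from −0.83 (RRP9) to −0.19 (UTP22). Among the other genes tested, 68 of 82 with both elements fell in MATalpha, with a median of −0.48. The share that fell was 54.3% of 127 genes with PAC alone, 55.2% of 297 with RRPE alone and 28.1% of 4955 with neither. In MATa the same shares were 39.0%, 24.4%, 33.3% and 15.3%. Many of those other genes are further ribosome biogenesis genes, so these shares describe promoters and genes of overlapping function.

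Within the small subunit processome, UtpA is the group of proteins that first binds the leading end of the precursor RNA. All 5 UtpA genes listed fell in MATalpha, with log2 fold changes of −0.41 (UTP10) to −0.82 (UTP4), and UTP4 and UTP10 fell in MATa. UTP4 (YDR324C, chromosome IV, 1114433 to 1116763) had 139, 129.5 and 135 CPM in tup1 MATa and 95.2, 93.0 and 98.6 CPM in tup1 MATalpha, against 163, 160 and 181 CPM in WT MATa and 183, 171 and 153 CPM in WT MATalpha. The tup1 libraries lay below the WT libraries of their mating type without overlap. Its log2 fold change was −0.82 ± 0.07 (SE, adjusted p = 7.18e-09) in MATalpha and −0.32 ± 0.07 (adjusted p = 0.0012) in MATa. UTP10 fell by 0.21 on the log2 scale in MATa but lost that call in some of the alternatives tried.

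UtpB, which chaperones the early precursor, and UtpC were represented by 4 genes. UTP18 (YJL069C, chromosome X, 310922 to 312706) had 80.3, 84.5 and 82.4 CPM in tup1 MATa and 66.1, 57.7 and 61.6 CPM in tup1 MATalpha, against 98.9, 99.9 and 103 CPM in WT MATa and 111, 106 and 97.8 CPM in WT MATalpha. All tup1 values were under all WT values of the same mating type, at −0.77 ± 0.07 (adjusted p = 1.04e-08) in MATalpha and −0.29 ± 0.07 (adjusted p = 0.00158) in MATa. UTP13 (YLR222C, chromosome XII, 579318 to 581771) had 120.0, 103 and 96.5 CPM in tup1 MATa and 101, 86.5 and 91.1 CPM in tup1 MATalpha, against 135, 135 and 147 CPM in WT MATa and 149.9, 131 and 131 CPM in WT MATalpha. It had 1 of the largest falls in MATa, −0.38 ± 0.08 (adjusted p = 0.000931), and fell by 0.57 in MATalpha (adjusted p = 8.71e-06). UTP21 fell by 0.50 in MATalpha and had −0.11 in MATa, which did not pass.

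UTP22 (YGR090W, chromosome VII, 662358 to 666071), the UtpC gene of the list, had the smallest fall among small subunit factors in MATalpha. It had 376, 397 and 366 CPM in tup1 MATa and 369, 343 and 362 CPM in tup1 MATalpha, against 395, 388 and 396 CPM in WT MATa and 432, 399 and 397 CPM in WT MATalpha. Its fall in MATalpha was −0.19 ± 0.06 (adjusted p = 0.0128), and MATa gave −0.05 ± 0.06 (adjusted p = 0.556). The MATalpha call was lost without WT MATalpha replicate 1 or without tup1 MATalpha replicate 2, where the adjusted p reached up to 0.0765.

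The Mpp10 complex, which joins the precursor with the U3 RNA, held the gene with the largest fall of the 49. IMP4 (YNL075W, chromosome XIV, 485607 to 486479) had 29.5, 26.8 and 29.1 CPM in tup1 MATa and 18.9, 21.2 and 23.5 CPM in tup1 MATalpha, against 40.7, 34.9 and 36.6 CPM in WT MATa and 41.6, 39.1 and 44.2 CPM in WT MATalpha. The lowest WT library in either mating type was above the highest tup1 library of that mating type. Its log2 fold change was −0.97 ± 0.10 in MATalpha (adjusted p = 7.5e-08) and −0.39 ± 0.09 in MATa (adjusted p = 0.00246). MPP10 fell in both mating types, by 0.60 and 0.21, and IMP3 fell by 0.62 in MATalpha, with −0.26 in MATa that did not pass.

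RRP9 (YPR137W, chromosome XVI, 802359 to 804080) encodes the protein specific to the U3 snoRNP. It had 89.4, 113 and 105 CPM in tup1 MATa and 72.3, 67.8 and 77.7 CPM in tup1 MATalpha, against 112, 114 and 126 CPM in WT MATa and 133, 129 and 125 CPM in WT MATalpha. In MATalpha the groups did not overlap, at −0.83 ± 0.08 (adjusted p = 3.9e-08). In MATa they overlapped, and the fall of −0.20 ± 0.08 passed narrowly (adjusted p = 0.0482) and was lost in 13 of the 18 alternatives tried.

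The remaining small subunit factors ranged widely. NOP9 and NOP14, which bind the precursor and its assembling head, fell in both mating types, NOP9 by 0.74 and NOP14 by 0.58 in MATalpha. NOC4, the partner of NOP14, fell by only 0.21 in MATalpha, a call lost without WT MATalpha replicate 1 (adjusted p = 0.072), and UTP20 and RRP12 fell by 0.30 and 0.36. BFR2 (YDR299W, chromosome IV, 1059627 to 1061231) had 38.4, 51.0 and 55.4 CPM in tup1 MATa and 46.3, 32.3 and 39.4 CPM in tup1 MATalpha, against 48.4, 48.99 and 45.2 CPM in WT MATa and 64.9, 54.1 and 59.3 CPM in WT MATalpha. It fell in MATalpha, at −0.61 ± 0.13 (adjusted p = 0.000624). In MATa the tup1 libraries lay on both sides of WT (0.02 ± 0.13, adjusted p = 0.919), with tup1 MATa replicate 1 lowest; without that library the value was 0.18.

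Genes whose products serve both subunits include the core proteins of box C/D snoRNPs, the particles that guide methylation of ribosomal RNA. NOP1 (YDL014W, chromosome IV, 427364 to 428347), the methyltransferase, had 1433, 1217 and 1109 CPM in tup1 MATa and 905, 1077 and 998 CPM in tup1 MATalpha, against 1264, 1267 and 1277 CPM in WT MATa and 1164, 1221 and 1239 CPM in WT MATalpha. The tup1 MATa libraries lay on both sides of WT, and the tup1 MATalpha libraries all lay below. The change was −0.28 ± 0.09 in MATalpha (adjusted p = 0.0117) and −0.02 ± 0.09 in MATa (adjusted p = 0.894). Without tup1 MATalpha replicate 1 the MATalpha call was lost (adjusted p = 0.061).

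NOP58 (YOR310C, chromosome XV, 896825 to 898360) had 473, 454.5 and 438 CPM in tup1 MATa and 361, 366 and 401 CPM in tup1 MATalpha, against 545, 533 and 534 CPM in WT MATa and 550.2, 525 and 531 CPM in WT MATalpha. It fell in both mating types, at −0.51 ± 0.07 in MATalpha (adjusted p = 1.59e-06) and −0.24 ± 0.07 in MATa (adjusted p = 0.00617), with no overlap between tup1 and WT. NOP56, its partner, fell by 0.52 and 0.18. RRP5 (YMR229C, chromosome XIII, 725934 to 731123), an RNA-binding protein needed for cleavages on both sides of the precursor, had 693, 638 and 602 CPM in tup1 MATa and 424, 444 and 453 CPM in tup1 MATalpha, against 818, 834 and 808 CPM in WT MATa and 788, 738 and 741 CPM in WT MATalpha. It fell the most of these 5 genes, at −0.78 ± 0.07 in MATalpha (adjusted p = 1.55e-08) and −0.35 ± 0.07 in MATa (adjusted p = 0.000581). HAS1 (YMR290C, chromosome XIII, 850074 to 851591), a helicase, had 209.5, 206 and 207 CPM in tup1 MATa and 153, 149 and 174 CPM in tup1 MATalpha, against 221, 212 and 221 CPM in WT MATa and 246, 214 and 221 CPM in WT MATalpha. It fell in MATalpha (−0.52 ± 0.07, adjusted p = 2.23e-06) and did not pass in MATa (−0.07 ± 0.07, adjusted p = 0.427).

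**Figure D3:**
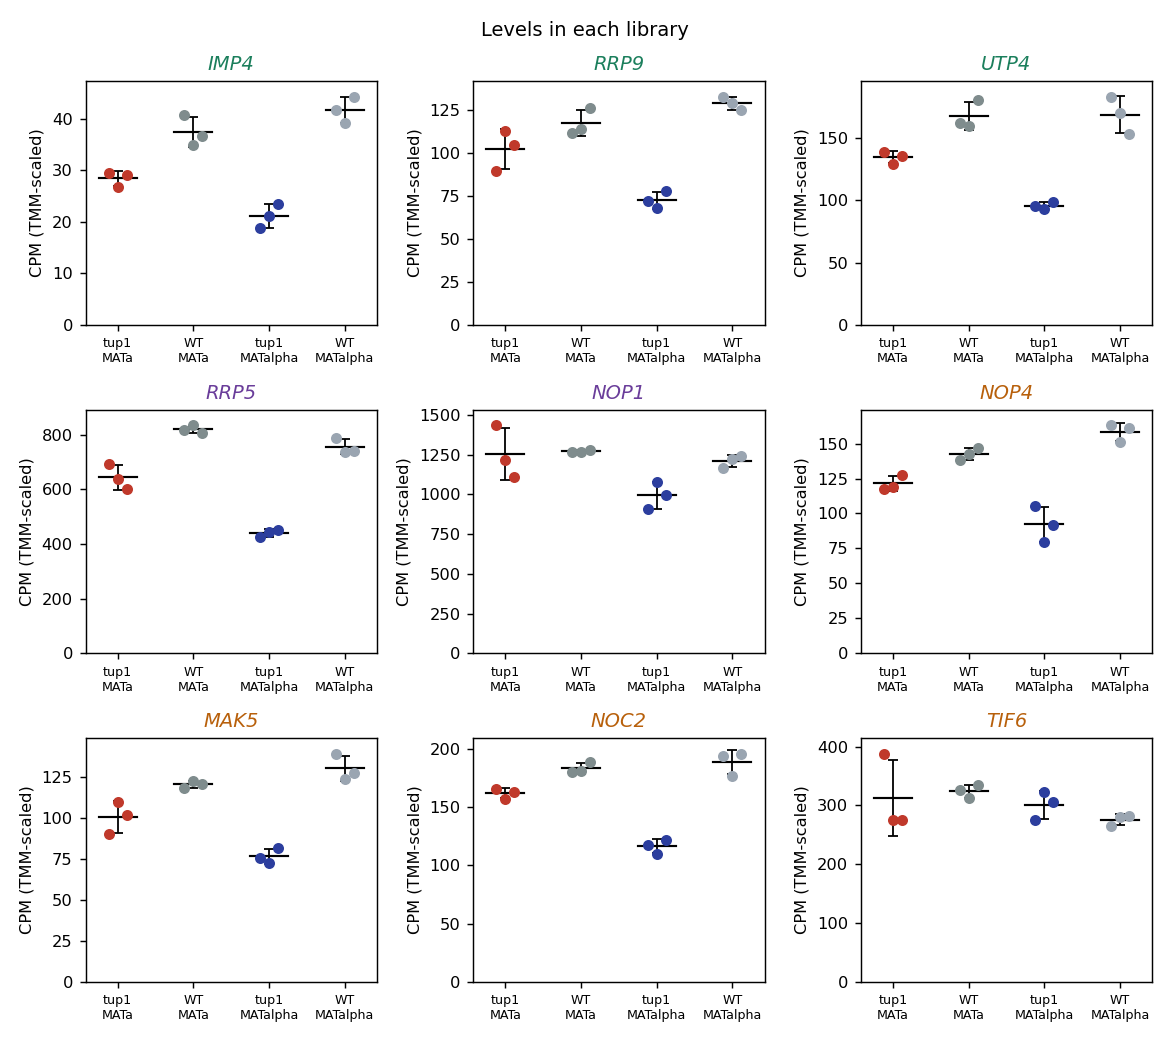
CPM (TMM-scaled, y axis from 0) in each library for 9 of the genes, by strain; points are libraries and black bars are the mean ± SD of 3, with gene names in green for small, purple for both and brown for large subunit factors. IMP4, UTP4, RRP5, NOP4, MAK5 and NOC2 are lowest in tup1 MATalpha, and TIF6 is not.

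Among large subunit factors, the Nop7-Erb1-Ytm1 complex, which processes the precursor of the 5.8S and 25S RNAs, fell as a whole in both mating types. The MATalpha log2 fold changes were −0.53 for NOP7, −0.70 for ERB1 and −0.65 for YTM1, and the MATa values were −0.16, −0.31 and −0.15. YTM1 (YOR272W, chromosome XV, 832813 to 834195) had 109, 101 and 104 CPM in tup1 MATa and 70.5, 74.7 and 76.4 CPM in tup1 MATalpha, against 114, 118 and 117 CPM in WT MATa and 116, 114 and 117 CPM in WT MATalpha. The tup1 MATalpha libraries were the lowest of the 12, and the MATa groups did not overlap. The test gave −0.65 ± 0.06 in MATalpha (adjusted p = 1.77e-08) and −0.15 ± 0.06 in MATa (adjusted p = 0.0383). The MATa calls of NOP7 and YTM1 were lost in 11 and 8 of 18 alternatives.

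NOC2 and NOC3 escort the early particle. NOC2 (YOR206W, chromosome XV, 727512 to 729644) had 166, 157 and 163 CPM in tup1 MATa and 118, 110.2 and 122 CPM in tup1 MATalpha, against 180.3, 181 and 189 CPM in WT MATa and 194, 177 and 196 CPM in WT MATalpha. It fell, at −0.70 ± 0.06 in MATalpha (adjusted p = 9.81e-09) and −0.18 ± 0.06 in MATa (adjusted p = 0.0249), again without overlap. NOC3 fell by 0.57 and 0.32. Of the RNA helicases, which unwind the precursor RNA, DBP3, MAK5 and DRS1 fell in both mating types and SPB4 in MATalpha. MAK5 (YBR142W, chromosome II, 528317 to 530638) had 90.7, 109.7 and 102 CPM in tup1 MATa and 76.0, 72.8 and 81.6 CPM in tup1 MATalpha, against 118, 123 and 121 CPM in WT MATa and 139, 124 and 128 CPM in WT MATalpha. The tup1 libraries lay below WT in both, and the change was −0.77 ± 0.07 in MATalpha (adjusted p = 3.22e-08) and −0.26 ± 0.07 in MATa (adjusted p = 0.00655).

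The Rix1 complex acts on later large subunit particles, and its 3 genes differed. IPI1 (YHR085W, chromosome VIII, 276764 to 277768) had the lowest level per length, 25.4 CPM per kb in WT MATalpha. It had 18.0, 18.3 and 18.9 CPM in tup1 MATa and 13.6, 15.4 and 16.5 CPM in tup1 MATalpha, against 24.4, 20.1 and 26.6 CPM in WT MATa and 30.5, 23.8 and 22.3 CPM in WT MATalpha. It fell, at −0.76 ± 0.14 in MATalpha (adjusted p = 8.09e-05) and −0.36 ± 0.13 in MATa (adjusted p = 0.0347). IPI3 (YNL182C, chromosome XIV, 295960 to 297627) had 102, 88.0 and 104 CPM in tup1 MATa and 77.8, 70.9 and 88.2 CPM in tup1 MATalpha, against 82.9, 90.2 and 101 CPM in WT MATa and 99.4, 94.1 and 95.3 CPM in WT MATalpha. Its MATa value was the highest of the 49 at 0.11 ± 0.09 (adjusted p = 0.332), and in MATalpha it fell, at −0.29 ± 0.09 (adjusted p = 0.00778), a call lost without tup1 MATalpha replicate 2 (adjusted p = 0.0576). RIX1 fell by 0.45 in MATalpha and had −0.07 in MATa, which did not pass.

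The early assembly factors NOP4, NOP12, NOP15, NOP16, NSA1, BRX1 and SSF1 all fell in MATalpha, at −0.40 (NOP16) to −0.79 (NOP4), and NOP4 and NSA1 fell in MATa. NOP4 (YPL043W, chromosome XVI, 469939 to 471996), an RNA-binding protein of the early large subunit particle, had 118, 119 and 127.5 CPM in tup1 MATa and 105, 79.8 and 91.6 CPM in tup1 MATalpha, against 138, 143 and 147 CPM in WT MATa and 163, 151 and 161 CPM in WT MATalpha. The change was −0.79 ± 0.08 in MATalpha (adjusted p = 4.84e-08) and −0.23 ± 0.08 in MATa (adjusted p = 0.0216), and tup1 and WT libraries did not overlap. NOP16 had overlapping MATalpha libraries, and its call was lost in 3 leave-one-out fits with an adjusted p up to 0.145. SSF1 shares 92.1% of its bases with SSF2, and 4.04% of its 50-base windows occur elsewhere in the genome. How far this affects its counts is not known, as the handling of multimapping reads is not given. No other gene of the 49 shared such a window.

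The later factors NOP2, NOP53, NUG1, NSA2 and RLP24 fell in MATalpha, at −0.44 (RLP24) to −0.61 (NSA2). NUG1 (YER006W, chromosome V, 162723 to 164285), a GTPase of the large subunit on its way to export, fell in MATa too. It had 129, 105 and 117 CPM in tup1 MATa and 92.1, 92.5 and 99.9 CPM in tup1 MATalpha, against 149.7, 153 and 146 CPM in WT MATa and 138, 136 and 145 CPM in WT MATalpha. The groups did not overlap, at −0.56 ± 0.07 in MATalpha (adjusted p = 1.21e-06) and −0.35 ± 0.07 in MATa (adjusted p = 0.000381).

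TIF6 did not follow the other genes in MATalpha. Its product, eIF6, keeps the maturing large subunit from joining the small one. TIF6 (YPR016C, chromosome XVI, 592332 to 593069) had 388, 275 and 275 CPM in tup1 MATa and 276, 322 and 306 CPM in tup1 MATalpha, against 326, 313 and 335 CPM in WT MATa and 265, 280.3 and 282 CPM in WT MATalpha. The tup1 and WT libraries overlapped in both mating types, and tup1 MATa replicate 1 was the highest of the 12. The change did not pass in MATalpha (0.13 ± 0.10, adjusted p = 0.295) or in MATa (−0.05 ± 0.10, adjusted p = 0.73). The MATa value rests on tup1 MATa replicate 1: without it TIF6 fell, at −0.23 ± 0.06 (adjusted p = 0.00664), while MATalpha still did not pass (0.13 ± 0.06, adjusted p = 0.0525). Per length it was among the more abundant of the 49, at 374 CPM per kb in WT MATalpha, beside 1228 for NOP1 and 349 for NOP58.

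Judged library by library, all 3 tup1 MATalpha libraries lay below all 3 WT MATalpha libraries for 47 of the 49 genes, all but NOP16 and TIF6, where 34.4% of all genes did. In MATa the same held for 30 of 49, where 23.2% of all genes did. These 30 were 10 small subunit factors, 16 large subunit factors and 4 of both. No gene of the 49 had all 3 tup1 libraries above all 3 WT libraries in either mating type, where 34.0% of all genes did in MATalpha and 27.2% in MATa. Leaving out tup1 MATa replicate 1 gave 23 lower genes in MATa, against 24 with it, and 19 genes were called in both fits. The calls of RRP9, NOP7, IPI1, NOP4 and NSA1 were lost, and UTP5, UTP15, UTP21 and TIF6 were lower only without it. In MATalpha the same 48 genes fell in both fits. The MATa count was 15, 16 and 14 without WT MATa replicates 1, 2 and 3, and 16 and 20 without tup1 MATa replicates 2 and 3. The MATa calls of UTP10, MPP10, RRP9, NOP56, NOP7, YTM1, NOC2, IPI1, NOP4 and NSA1 were each lost on leaving out 1 library of the MATa groups or more, with a highest adjusted p of 0.0962 (NOP4) to 0.264 (RRP9) over the alternatives. The other 14 MATa calls held in all 18 alternatives.

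The tup1 effect differed between the mating types for most of the genes. The interaction, the MATalpha effect minus the MATa effect, was negative and passed for 32 of 49 genes and was positive and passed for 0, against 11.5% and 12.4% of all genes. Its median was −0.39, beside −0.03 for all genes. The 32 genes were 11 of 19 small subunit factors, 17 of 25 large subunit factors and 4 of 5 of both. In 48 of 49 genes the MATalpha fold change was the lower, and TIF6 was the exception at 0.18 ± 0.15 (adjusted p = 0.398). Without tup1 MATa replicate 1 the counts were 38 negative and 1 positive, and all 32 calls were among the 38. The genes added were NOP14, UTP20, RRP12, DBP3, NOP12 and SSF1, and the positive one was TIF6, at 0.36 ± 0.09 (adjusted p = 0.00301).

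The smallest interaction p-values belonged to NOC2 at −0.52 ± 0.09 (adjusted p = 0.000244), YTM1 at −0.49 ± 0.08 (adjusted p = 0.000279) and RRP9 at −0.63 ± 0.11 (adjusted p = 0.000484). They were followed by NOP4 at −0.56 ± 0.11 (adjusted p = 0.00107), UTP4 at −0.51 ± 0.10 (adjusted p = 0.00108) and UTP18 at −0.48 ± 0.10 (adjusted p = 0.00124). IMP4, with the largest fall, gave −0.58 ± 0.14 (adjusted p = 0.00491), and RRP5 gave −0.43 ± 0.10 (adjusted p = 0.0041). Of the genes with the largest MATa falls, UTP13 (−0.19, adjusted p = 0.267), NUG1 (−0.21, adjusted p = 0.13) and IPI1 (−0.40, adjusted p = 0.133) did not pass. By pattern, 17 genes fell in both mating types with a negative interaction, 7 fell in both without one, 15 fell in MATalpha alone with a negative interaction, and 9 fell in MATalpha alone without one. For the 9 (IMP3, NOC4, NOP1, NOP12, NOP16, RRP12, SSF1, UTP20 and UTP22) a difference between the mating types was not shown with all 12 libraries; 4 of them are among the genes added above.

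**Figure D4:**
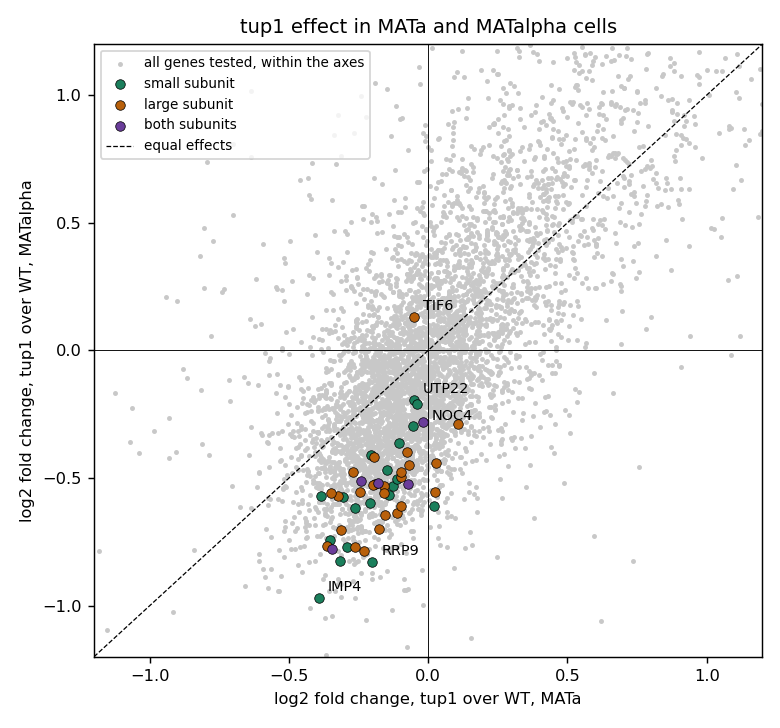
Log2 fold change of tup1 over WT in MATa (x axis) and MATalpha (y axis) for the 49 genes, coloured by subunit, over the genes tested that lie within the axes (grey); the dashed line marks equal effects. The coloured points lie below the dashed line except TIF6.

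Across the 49 genes the MATa and MATalpha effects had a Pearson r of 0.64 and a Spearman rho of 0.67, beside 0.77 and 0.70 over the 5654 genes tested. The points come from the same 12 libraries and 1 fit, and genes are not independent replicates. Gene length had a Spearman rho of −0.07 with the MATalpha effect and −0.24 with the MATa effect over the 49 genes.

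With all 12 libraries in the fit, few of these genes passed the test between WT cells of the mating types. In WT, 1 gene was higher in MATalpha than in MATa and 0 were lower, against 0.531% and 0.371% of all genes. It was RLP24, a factor resembling a ribosomal protein, with 0.30 ± 0.07 (adjusted p = 0.0454), and the call was lost in 11 of 18 alternatives. At an unadjusted p under 0.05, 9 of the 49 genes were higher and 1 was lower, against 9.06% and 6.7% of all genes, and the median over the 49 was 0.07, beside 0.01 for all genes. Without tup1 MATa replicate 1, BFR2, NOP15 and NSA2 were higher too and TIF6 was lower. More of the 49 passed, in both directions, when only the 6 libraries compared were fitted. Those counts are given with the other alternatives below, without the share of all genes. All 3 WT MATalpha libraries lay above all 3 WT MATa libraries for 15 of the 49 genes and below for 4, likewise without that share. In tup1 cells, 36 of 49 were lower in MATalpha than in MATa and 0 were higher, against 17.2% and 17.8% of all genes. Without tup1 MATa replicate 1 the count was 41, with BFR2, NOP12, SSF1, NOP53 and RLP24 added. The median was −0.29, beside −0.02 for all genes, and the 36 were 14 small subunit factors, 17 large subunit factors and 5 of both. RRP5 had the lowest value in this comparison, −0.55 ± 0.07 (adjusted p = 7.1e-06), and TIF6 the highest at −0.05. BFR2, NOP53 and RLP24 passed the interaction but not this comparison of tup1 cells. For MATalpha against MATa they had 0.33, 0.20 and 0.30 in WT and −0.30, −0.18 and −0.17 in tup1. All 3 tup1 MATalpha libraries lay below all 3 tup1 MATa libraries for 33 of 49 genes, where 19.7% of all genes did. These contrasts share libraries with the tup1 comparisons above.

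Genes of the pathway that are not among the 49 were counted in 5 lists by role, to be read against the 31.0% of all genes that fell in MATalpha and the 16.7% that fell in MATa. Of 43 other small subunit factor genes, 40 fell in MATalpha and 18 in MATa, and 0 rose in either, with medians of −0.53 and −0.16. UTP30 had the lowest MATalpha value, −0.97 (adjusted p = 1.49e-06), and RRP36 the highest, −0.17 (adjusted p = 0.305). ROK1, a helicase, had the lowest MATa value, −0.43 (adjusted p = 0.00049), and FAL1, another helicase, the highest, 0.04 (adjusted p = 0.882). Of 40 other large subunit factor genes, 37 fell in MATalpha and 17 in MATa, and 0 rose, with medians of −0.58 and −0.19. RRS1, which brings the 5S RNA particle to the large subunit, fell by 0.94 in MATalpha (adjusted p = 5.68e-09), while SQT1, the chaperone of a ribosomal protein, had −0.04 (adjusted p = 0.617). In MATa MAK11 was lowest at −0.33 (adjusted p = 0.0027) and ALB1 highest at 0.06 (adjusted p = 0.617).

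The 4 core genes of the box H/ACA snoRNPs, which guide pseudouridylation, all fell in both mating types. Their medians were −0.63 in MATalpha and −0.30 in MATa. GAR1 fell by 0.71 (adjusted p = 2.62e-07) and NOP10 by 0.48 (adjusted p = 0.000221) in MATalpha, and in MATa NOP10 fell by 0.43 (adjusted p = 0.000999) and GAR1 by 0.24 (adjusted p = 0.0197). Of 8 RNA polymerase I genes, 6 fell in MATalpha and 3 in MATa, against 31.0% and 16.7% of all genes. RPA34 fell by 0.66 in MATalpha (adjusted p = 9.31e-05) and had −0.29 in MATa (adjusted p = 0.0572). RPA14 had −0.05 in MATalpha (adjusted p = 0.569) and was the 1 gene of the list that rose, by 0.21 in MATa (adjusted p = 0.0181), a call that DESeq2 did not make (adjusted p = 0.0501).

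Of 10 regulators of ribosome genes, 6 fell and 3 rose in MATalpha, and 0 fell and 4 rose in MATa. In MATalpha 32.0% of all genes rose, close to the 30.0% of the list, and DESeq2 gave 4 lower, without IFH1 and STB3. In MATa 24.7% of all genes rose. HMO1, a chromatin protein of ribosomal genes, fell by 0.77 in MATalpha (adjusted p = 2.82e-09) and had −0.13 in MATa (adjusted p = 0.0938). CRF1, a corepressor of ribosomal protein genes, rose by 1.34 in MATalpha (adjusted p = 0.00207) and 1.35 in MATa (adjusted p = 0.00255). The other regulators were chosen for naming after their values were seen. DOT6, the repressor that binds PAC, rose by 0.42 in MATalpha (adjusted p = 0.000126) and by 0.75 in MATa (adjusted p = 1.64e-07). SCH9, a growth kinase, rose by 0.19 in MATalpha (adjusted p = 0.0157) and by 0.22 in MATa (adjusted p = 0.0125). TOD6, the paralog of DOT6, rose by 0.30 in MATa (adjusted p = 0.0185) and had −0.16 in MATalpha (adjusted p = 0.149). STB3, the repressor that binds RRPE, fell by 0.27 in MATalpha (adjusted p = 0.0233) and had 0.09 in MATa (adjusted p = 0.501). RAP1, FHL1, IFH1 and SFP1, activators of ribosome genes, fell in MATalpha, by 0.55, 0.48, 0.25 and 0.24, and none of these 4 passed in MATa.

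Several of the 49 genes lie next to another gene of ribosome biogenesis. NSA2 and LCP5 are divergent with 301 bases between them, as are SSF1 and RRP3 with 297. RIX1 follows UTP9 at 237 bases, UTP13 and RSA3 are 293 bases apart on the same strand, and NOC4 and RRP15 converge at 689 bases. None of the 49 overlaps another gene of the RefSeq R64 annotation. Of the 6219 genes counted, 5811 matched the RefSeq gene table, and overlaps with the rest were not searched.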

How the data were processed

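RNA was measured in 12 stranded, ribosome-depleted total RNA libraries. The authors deposited raw read counts per gene as 1 table of 6219 genes. The tools named per the submitters' processing notes are featureCounts 1.6.3 (Subread), STAR 2.7.3 and cutadapt 2.8, and the builds are R64 and sacCer3. No role, strand setting or handling of multimapping reads is given in the sources used here.

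Testing used edgeR 4.0.16 (R 4.3.3). Genes passed filterByExpr by group at a minimum count of 10, and TMM scaled the libraries. A robust quasi-likelihood fit of 4 group means (8 residual degrees of freedom) gave 5 two-sided contrasts. p-values were Benjamini-Hochberg adjusted over 5654 genes. The procedure was also run on simulated counts with changes in tup1 MATalpha alone and the same spread in all strains. That run does not cover the unequal spread between tup1 and WT replicates seen here. DESeq2 1.42.0, other scalings, no filter, a replicate block, fits of the 6 libraries compared and leaving out each library were alternatives. Same-numbered replicates did not deviate together, with correlations of −0.29 to 0.12. CPM used TMM factors. Depth of 5657714 to 9300353 counts limits the precision of the weakest genes.

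The 49 genes and the pathway lists were chosen with earlier results of these data known. Values in every library are given for the 2 lowest and the highest log2 fold change per class in each tup1 comparison and the 6 smallest interaction p-values. Each pathway list's lowest and highest gene is named. Promoters were read from the RefSeq R64 genome, whose gene positions equalled those of the RefSeq gene table for 5766 of 5766 genes compared.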

Additional observations from a re-analysis of the deposited data

Results flagged for a closer look

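The tup1 effect differed between the mating types by the interaction test for 32 of the 49 ribosome biogenesis factor genes, and the MATalpha effect was the lower in each. Among small subunit factors described above, the interaction (MATalpha effect minus MATa effect, log2 scale) was −0.63 for RRP9, −0.63 for BFR2, −0.58 for IMP4, −0.51 for UTP4 and −0.48 for UTP18. Among large subunit factors it was −0.56 for NOP4, −0.52 for NOC2, −0.51 for MAK5, −0.49 for YTM1 and −0.40 for IPI3. Among genes of both subunits it was −0.45 for HAS1, −0.43 for RRP5 and −0.27 for NOP58. The interaction call was lost in 11 of 17 alternatives for NOP58, in 6 for IPI3 and in 2 for BFR2. The other genes named here kept it in all 17.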

How the results depend on the processing

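Of the 24 calls in MATa, 14 held in all 18 alternatives, as did 43 of 48 in MATalpha. Of the 32 in the interaction, for which the 6-library fit does not exist, 25 held in all 17. The others were UTP15, BFR2, NOP58, DRS1, IPI3, NSA1 and NOP53. Upper-quartile scaling gave 38 lower genes in MATa with a median of −0.28, of which 17 were small subunit factors (median −0.30). The lower genes among all genes tested also rose with it in MATa, from 947 to 1778. In MATalpha it gave medians of −0.70 over all 49 genes, −0.72 for small and −0.70 for large subunit factors. Leaving out 1 library at a time gave 14 to 24 lower genes in MATa, 6 to 11 of them small and 6 to 12 large subunit factors, with a small subunit median of −0.20 to −0.14. The interaction then had 0 to 1 higher genes. For MATalpha against MATa in WT, the 1 higher gene became 0 with RLE scaling, 0 without the filter, 0 with the replicate block, 12 with only the 6 libraries compared and 0 to 4 on leaving out a library. The 0 lower genes became 2 with only the 6 libraries and 0 to 1 on leaving out a library. The counts from the 6 libraries stand without the share of all genes in that fit. Whether they are particular to the 49 genes therefore cannot be told. The cause of these shifts was not tested. The replicate block gave 21 lower genes in MATa, 48 in MATalpha and 30 in the interaction. The labels do not say whether equal replicate numbers pair the libraries. Directions of uncalled genes turned: BFR2 in MATa was −0.083 with upper-quartile scaling and −0.10 to 0.18 on leaving out a library, NOP1 in MATa was −0.12 to 0.062, and TIF6 in MATalpha was −0.020 with upper-quartile scaling.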
